A study of Homo sapiens with 2 samples.

Results

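The count table of this small RNA study lists 497 loci that carry no microRNA (miRNA) name, out of 947 loci in all. They were chosen by their identifier alone. An identifier gives a chromosome or scaffold and a running number (chr19_1157613), and the other 450 loci also carry the name of a miRNA, joined to the number by __. No measured value entered the choice. The files hold no start, end, strand, sequence or RNA class for these loci, so each is called here by its identifier.

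The cells were MCF10A, an immortalised human breast epithelial line that does not form tumours. The treated group received withaferin A, a lactone made by the plant Withania somnifera, at 2 µM for 24 h (columns MCF-10A-01 to MCF-10A-03). The other group was untreated (columns AB-01 to AB-03). Each group is 1 sample record whose 3 libraries are said to be replicates, with no word on whether they came from separate cultures, so p-values measure only the spread between libraries, which may be technical. Both groups are the same line with no genetic change stated. The labels name 2 library kits, QIAseq and NEBNext, and in the order in which they are listed NEBNext made the withaferin A libraries and QIAseq the untreated ones. Treatment and kit cannot be told apart.

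Depth set what could be seen. The withaferin A libraries held 340 to 430 counts, against 1855838 to 2615684 counts in the untreated libraries. A single count was worth 2326 to 2941 CPM (counts per 1000000 counts of the library) after withaferin A, against 0.382 to 0.539 CPM in untreated cells. The 4 miRNAs listed for breast epithelium were miR-205, miR-200c, miR-141 and miR-203a, all in the table. Together they took 28.8% to 37.2% of withaferin A counts and 6.91% to 7.77% of untreated counts. Only this sum was taken, and a single abundant member can carry it. Lists for blood (3 of 4 found), stroma (3 of 3 found) and muscle and liver (2 of 4 found) each summed to 0 counts after withaferin A and to at most 0.00793% of an untreated library. At such shares a library of 340 to 430 counts would seldom hold a count, so these 0 values say nothing of the treated cells. Shares are parts of the counted reads, so fewer cells and less RNA per cell cannot be told apart.

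Small RNA libraries are built from short RNAs, among them miRNAs, which Drosha and Dicer cut from a hairpin and which guide Argonaute to messenger RNAs. Programs that search such reads for hairpins also report places outside the known miRNA catalogue. Some of these places are hairpins that the catalogue lacks, and others are pieces of transfer, ribosomal, nucleolar or messenger RNA. The table does not say which kind any of the 497 loci is.

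The 497 unnamed loci lay on all 24 chromosomes of the table (481 loci) and on 12 scaffolds (16 loci), against 441 named loci on chromosomes and 9 on scaffolds. Chromosomes 1 and 2 held the most, 37 each, followed by chromosome 17 with 28 and chromosomes 9 and 19 with 27 each. Chromosomes 6 and 16 held 26 each, chromosome 10 held 25, and chromosome 20 held 23. Chromosomes 3, 4, 5, 8 and 11 had 21 each, X had 19, chromosome 7 had 18, and chromosomes 14, 12 and 15 had 17, 16 and 15. The fewest were on chromosomes 13, 18, 22 and 21, with 12, 10, 8 and 4, and 1 was on Y.

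Unnamed loci made up 52.5% of the table but were not spread like the named ones. They outnumbered named loci on 14 chromosomes, equalled them on 3 and were fewer on 7. The share without a name was highest on chromosomes 20 (71.9%), 18 (71.4%), 6 and 16 (68.4% each), leaving out Y, whose only locus is unnamed. It was lowest on X (28.8%), where 47 loci carry a name, and on chromosome 14 (32.7%), where 35 do; both chromosomes are known for large miRNA clusters. Across the 23 chromosomes other than Y, the number of unnamed loci went with the span of running numbers on the chromosome at Pearson r = 0.80 (Spearman rho = 0.60), against r = 0.52 (rho = 0.47) for named loci. These are descriptions of 1 table.

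**Figure D1:**
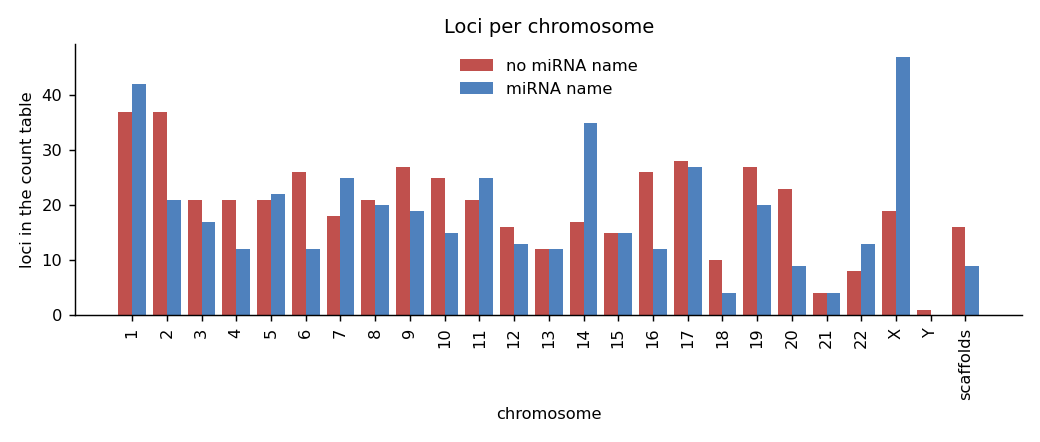
Bars give the number of loci in the count table on each chromosome, with all scaffolds summed at the right, for loci without a miRNA name (red) and with one (blue). Chromosomes 1 and 2 hold 37 unnamed loci each, while on X 47 named loci stand beside 19 unnamed ones.

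The running number carries order along the genome, which gives the unnamed loci a rough place. Of the named loci, 338 bear a name that RefSeq (build GRCh38.p14) places at 1 position on the same chromosome. In 294 of the 295 neighbouring pairs on 1 strand these positions rose with the number, and on 19 of 21 chromosomes every minus-strand number was above every plus-strand number. The pair that ran the other way ended at the chromosome 3 locus named miR-885-5p, and the exceptions on strand were loci named miR-3155b on chromosome 10 and miR-548aq-3p on chromosome 3. Between neighbours 1 step of the number spanned a median of 3278 bases (quartiles 1468 and 5024). By this order 185 unnamed loci fell on the minus strand, 113 could not be placed, and the others fell on the plus strand.

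Unnamed loci were seldom numbered close together. Another unnamed locus lay within 10 steps of 16 of the 497 (3.22%), whereas another named locus lay within 10 steps of 148 of the 450 named ones (32.9%). Only 2 unnamed loci lay within 10 steps of a named one, chr20_1174048, next after a locus named miR-941, and chr7_566351, 3 steps after one named miR-29b-1-5p (both named here after their values were seen). The median distance to the nearest locus of the same kind was 785 steps for unnamed and 447 for named loci.

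The mature sequences of 4 miRNAs from RefSeq (GRCh38.p14) are printed because they bracket the most tightly placed of the abundant unnamed loci, chr17_1058531, and the unnamed locus that led after withaferin A, chr16_994508. They are the named neighbours in the numbering, not sequences of the unnamed loci. Capitals mark the seed, bases 2 to 8 from the 5′ end.
miR-22-5p, chr17:1713952-1713973, minus strand, before chr17_1058531: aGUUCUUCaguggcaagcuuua
miR-132-5p, chr17:2049965-2049986, minus strand, after chr17_1058531: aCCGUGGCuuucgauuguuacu
miR-484, chr16:15643301-15643322, plus strand, before chr16_994508: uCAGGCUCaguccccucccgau
miR-3935, chr16:56245577-56245598, plus strand, after chr16_994508: uGUAGAUAcgagcaccagccac
The first pair lie 336 kb apart, and chr17_1058531 is numbered 167 steps after miR-22-5p and 15 steps before miR-132-5p. The second pair lie 40602 kb apart, with chr16_994508 6900 steps after miR-484 and 1609 steps before miR-3935, so its place on the chromosome is known only broadly.

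In untreated cells the unnamed loci were many but scarce. They took 1.45% ± 0.0717 of counts (SD, n = 3), with 37127 of 2571073 counts in AB-01, 40046 of 2615684 in AB-02 and 25774 of 1855838 in AB-03. Between 377 and 412 of them had a count in a library, 47.1% to 49.2% of all loci with a count.

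The median unnamed locus had a mean of 4 counts, or 1.69 CPM, and the median named locus 31.7 counts, or 13.5 CPM. A mean of at least 1 CPM was reached by 297 unnamed loci, at least 10 CPM by 97 and at least 1000 CPM by 3. For named loci these numbers were 398, 245 and 72. At least 100 CPM was reached by 19 unnamed loci. A single read in all untreated libraries together was the whole evidence for 53 unnamed and 10 named loci. The authors' normalized table kept 269 of the 497 unnamed loci and 391 of the 450 named ones, exactly those above 0.5 CPM in at least 3 libraries.

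**Figure D2:**
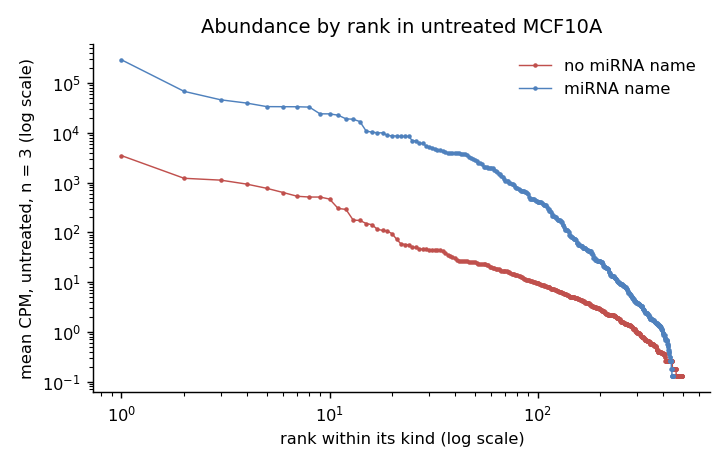
Points give each locus's mean CPM over the 3 untreated libraries (log scale) against its rank among loci without a miRNA name (red) or with one (blue), also on a log scale. The leading unnamed locus stands at 3482 CPM and the leading named one at 293821 CPM.

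A few loci carried most of the unnamed counts. Over the untreated libraries together the first held 23.9% of them, the first 5 held 52.3%, the first 10 held 70.3% and the first 20 held 81.5%. The 5 highest in each library took 52.1% of its unnamed counts in AB-01, 57.0% in AB-02 and 47.1% in AB-03. Chromosome 19 alone supplied 24.6% of unnamed counts, chromosome 1 supplied 10.6%, chromosome 20 supplied 8.69%, and chromosome 6 supplied 8.21%. Chromosome 2, with as many unnamed loci as chromosome 1, supplied 2.82%.

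The most abundant was chr19_1157613, the highest-numbered unnamed locus of chromosome 19, which the order of the numbers places on the minus strand. It had 9746 counts in AB-01, 8460 in AB-02 and 6347 in AB-03, or 3482 ± 283 CPM (SD, n = 3), the 47th highest of all 947 loci in untreated cells. The 3 libraries stood close together, with the highest CPM 1.17 times the lowest. Nearest among named loci was one named miR-150-5p, 2151 steps before it.

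The next 3 were higher in AB-02 than in the other libraries. chr1_88585, 629 steps after the locus named miR-101-5p, had 2884, 4251 and 1691 counts in AB-01, AB-02 and AB-03, or 1219 ± 367 CPM. chr20_1189216 had 2333, 4877 and 1085 counts, or 1119 ± 666 CPM, so that AB-02 stood 3.19 times above AB-03. chr6_461089 had 2257, 3456 and 1100 counts, or 931 ± 367 CPM. These 3 were highest in AB-02 and lowest in AB-03. chr9_652439, lower in rank, was likewise highest in AB-02, with 883, 1745 and 721 counts (466 ± 175 CPM).

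Other abundant loci held steadier or ran the other way. chr17_1058531, the locus between miR-22-5p and miR-132-5p, had 2128, 1765 and 1472 counts in AB-01, AB-02 and AB-03, or 765 ± 80.2 CPM. chr9_670001, 54 steps after a locus named miR-3074-5p, had 1287, 1577 and 904 counts, or 530 ± 63.3 CPM. Their coefficients of variation (CV, the SD over the mean) were 10.5% for chr17_1058531 and 11.9% for chr9_670001. chr8_611926 had 1588, 1154 and 1538 counts (629 ± 194 CPM), and chr10_732918 had 804, 404 and 739 counts (288 ± 124 CPM). These 2 were lowest in AB-02 and highest in AB-03, the reverse of chr20_1189216.

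The remaining loci of the 20 most abundant ran from 512 down to 93.7 CPM. Counts at chr14_936581 and KI270847.1_1292395 were the same in every library, 1495, 1071 and 1010 (512 ± 90.5 CPM). chr5_441029 averaged 302 ± 8.64 CPM, and chrX_1251364 175 ± 7.69 CPM, and chr4_372373 had 370, 387 and 249 counts (CV 4.99%), each nearly level over the 3 libraries. chr3_245742 averaged 173 ± 83.3 CPM, chr10_692797 150 ± 25.6 CPM and chr2_141640 115 ± 44.1 CPM. chr3_235239 (109 ± 18.2 CPM), chr1_41581 (106 ± 17.4 CPM) and chr1_39975 (93.7 ± 22.8 CPM) closed the set. The last 2 lie on either side of the locus named miR-92b-5p in the numbering, 918 steps after it and 688 steps before it.

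**Figure D3:**
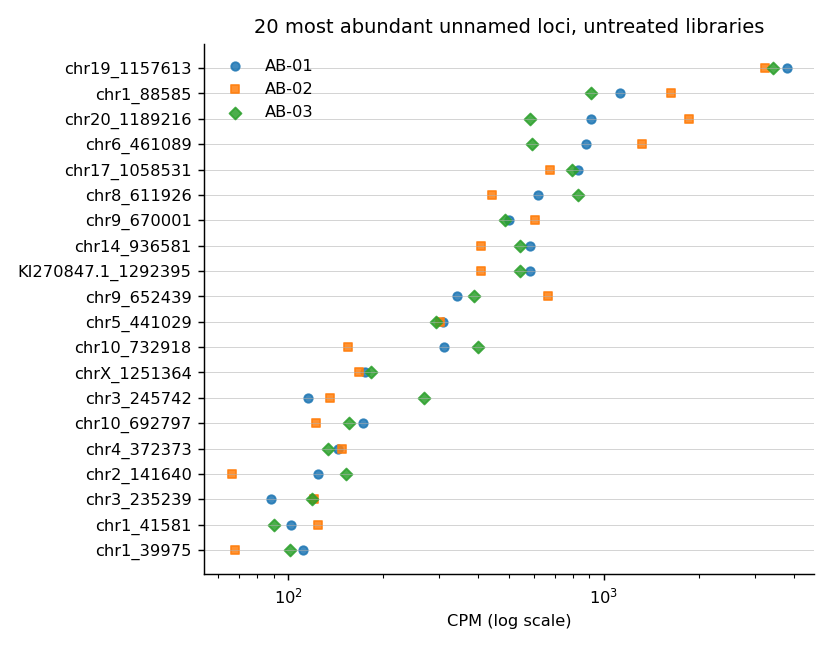
Each row is 1 of the 20 most abundant unnamed loci and each symbol 1 untreated library, on a log axis of CPM. AB-02 is highest at 8 of the 20 and lowest at 10, while chr5_441029, chrX_1251364 and chr4_372373 have the 3 symbols nearly on top of each other.

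Repeatability over AB-01, AB-02 and AB-03 followed abundance. A count was present in all 3 libraries at 313 unnamed loci (63.0%), in 2 at 72 and in only 1 at 112. Among named loci 404 (89.8%) had a count in all 3, 27 in 2, 18 in 1 and 1 in none. The unnamed loci seen in 3 libraries had a median of 10.3 counts per library, those seen in 2 had 1.67, and those seen in 1 had 0.667. No unnamed locus confined to 1 library had more than 4 counts there.

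Within bands of the mean count the 2 kinds were set side by side. With a mean of 1 to under 5 counts, 51.2% of 170 unnamed and 71.3% of 87 named loci were seen in all 3 libraries, although the median count in this band was 2 for unnamed and 3 for named loci. With 5 to under 10 counts it was 95.6% of 68 unnamed and 100% of 48 named loci, and with 10 to under 50 it was 99.0% of 105 and 100% of 87. The median CV of CPM in that last band was 27.3% for unnamed and 30.4% for named loci. With 50 to under 500 counts it was 23.8% and 22.4%. From 500 counts up it was 23.9% over 12 unnamed and 15.9% over 117 named loci, whose median counts also differed, at 1341 for unnamed and 4565 for named loci. No test was made of these differences, since loci of 1 library are not replicates.

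Over the 57 unnamed loci with a mean of at least 50 counts the median CV was 23.8% (range 2.86% to 61.7%), and over the 207 such named loci 20.1%. The highest of the 3 CPM values was at least 2 times the lowest at 16 of the 57, and at 33 of the 207 named loci. AB-02 was the highest or the lowest library at 50 of the 57. Among the 207 named loci AB-02 was likewise highest at 60 and lowest at 119, so this is not particular to unnamed loci. Without AB-02 (untreated replicate 2) the median CV was 11.4% for unnamed and 11.9% for named loci. Across these 57 loci the correlation of log2 CPM was r = 0.98 between AB-01 and AB-03, 0.96 between AB-01 and AB-02, and 0.91 between AB-02 and AB-03. These describe loci that were all read in the same libraries, and carry no test.

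The 5 steadiest of the 57 were chr5_441029, chr6_478110, chr17_1083477, chrX_1251364 and chr6_506304, with CVs of 2.86% to 4.39%. chr5_441029 had 310, 303 and 293 CPM in AB-01, AB-02 and AB-03, and its chi-square per degree of freedom, which is 1 on average when counting error is the only spread, was 0.529. All 5 were below 1 by this measure, against a median of 6.55 over the 57. They were picked for their low CV in the same libraries, so low values follow from that choice. The 5 least steady were chr2_193313, chr20_1189216, chr4_354235, chr3_245742 and chr16_1026505, with CVs of 47.5% to 61.7%. chr2_193313 had 62, 108 and 19 counts, so its CPM was 4.03 times as high in AB-02 as in AB-03. chr4_354235 ran the other way, with 128, 79 and 168 counts and its highest CPM in AB-03. chr3_245742 had 297, 355 and 499 counts, and chr16_1026505 had 146, 56 and 116.

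**Figure D4:**
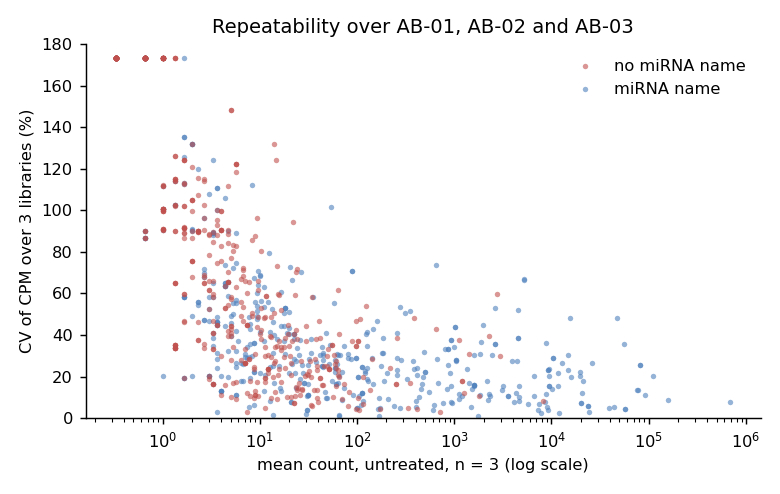
Each point is a locus, placed by its mean count over the 3 untreated libraries (log scale) and by the CV of its CPM over them in percent, for loci without a miRNA name (red) and with one (blue). Loci seen in 1 library sit at 173%, and the median CV of unnamed loci is 27.3% at 10 to under 50 counts and 23.9% from 500 counts up.

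Some unnamed loci were not separate measurements. A minimum of 10 counts in AB-01, AB-02 and AB-03 alike was met by 124 unnamed loci, and 15 of them had counts equal, with no tolerance, to those of another locus in all 6 libraries. They formed 7 groups, and every partner was also unnamed. Of 274 named loci at this level, 58 had such a partner. Among the more abundant were chr14_936581 with KI270847.1_1292395, chr2_181421 with KN538363.1_1287107 (120, 74 and 115 untreated counts) and chr2_181422 with KN538363.1_1287108 (116, 72 and 107). The last 2 pairs are numbered 1 step apart on both the chromosome and the scaffold, and their counts nearly match as well.

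Pairs across chromosomes were present too. chr5_376767, chr11_786328 and chr18_1091005 all had 59, 45 and 52 counts, chr2_182102 and chr17_1082527 had 50, 84 and 32, chr17_1088075 and chr20_1167863 had 47, 38 and 40, and chrX_1230864 and chrY_1278244 had 26, 23 and 18 (loci singled out after their values were seen). The only locus of Y thus carries the counts of a locus of X. On scaffolds, 10 of the 16 unnamed loci reached 3 counts in AB-01, AB-02 and AB-03 alike, and all 10 had the counts of another locus. How reads that match several places were counted is not given in the sources used here, and loci with equal counts are not separate measurements.

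After withaferin A, 3 of the 497 unnamed loci had a count and 494 had none, against 41 of the 450 named loci with a count. The 3 were chr16_994508, chr16_1011619 and KI270853.1_1297129. Counts at the unnamed loci came to 12 of 418, 2 of 430 and 11 of 340 in replicates 1, 2 and 3, which is 2.87%, 0.465% and 3.24%. The exact 95% Clopper-Pearson limits were 1.49% to 4.96%, 0.0564% to 1.67% and 1.63% to 5.71%. Such limits cover counting error only.

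chr16_994508 was the unnamed locus that edgeR called higher. It had 10, 2 and 9 counts in withaferin A replicates 1, 2 and 3, or 23923, 4651 and 26471 CPM, against 37, 44 and 35 counts, or 14.4, 16.8 and 18.9 CPM, in untreated AB-01, AB-02 and AB-03. No library of one group reached the range of the other, and replicate 2 was the lowest of the withaferin A libraries. It was the 7th most abundant of all loci after withaferin A and the 288th in untreated cells. Its 21 of 1188 summed withaferin A counts were 1.77% (exact limits 1.10% to 2.69%), against a mean of 0.00167% in untreated libraries, a ratio of 1059 (657.5 to 1611). The log2 fold change was 8.89 ± 0.78 (SE, edgeR quasi-likelihood test with Benjamini-Hochberg adjusted p = 0.000704), higher in 3 of 3 libraries. It ran between 7.66 and 10.06 over the alternatives, the highest with library totals, which the ratio of shares also uses, in place of TMM scaling. In untreated cells its CV was 13.4%, against a median of 27.3% over unnamed loci with a mean of 10 to under 50 counts. In the order in which the labels list them, the library kit changed with the group. Its part in the result then cannot be told apart from that of withaferin A.

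The other 2 loci with a count had 1 in replicate 1, 0 in replicate 2 and 1 in replicate 3. chr16_1011619 and KI270853.1_1297129 also had the same untreated counts, 5, 8 and 9 in AB-01, AB-02 and AB-03 (3.28 ± 1.47 CPM), and they are not separate measurements. At each, 2 of 1188 counts were 0.168% of withaferin A counts, against 0.000328% in untreated libraries, a ratio of 513 with exact limits of 62.1 to 1848. With 2 counts this is a wide interval, and the pair fell below the filter on low counts. Tested with no such filter, both were called higher, at a log2 fold change of 7.57 ± 1.68 (SE, edgeR adjusted p = 0.00596). In a withaferin A library 1 count is worth at least 2326 CPM, so any count here lies far above 3.28 CPM. The 2 loci were singled out for having a count, so the ratio and the calls follow from that choice and do not show a rise.

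edgeR tested 303 of the 947 loci and called 53 of them (17.5%) at an adjusted p under 0.05, 2 higher (0.66%) and 51 lower (16.8%). In simulated data at these depths, many loci were changed in both directions by a set amount that was not taken from these data. There edgeR also called unchanged loci, and every such call was lower. With no locus changed it made no call. Which setting is nearer these data is not known, so a lower call alone was not taken to show a fall. Of the 76 unnamed loci tested, 2 were called, chr16_994508 higher and chr19_1157613 lower, and 4 had an unadjusted p under 0.05. The number called was 5 without untreated replicate 1, 4 without untreated replicate 3 and 1 without withaferin A replicate 3. Over all 303 loci the same runs called 68, 65 and 24. In limma-voom 64 of the 65 unnamed calls were higher, as were 180 of the 234 calls over all 303 loci. All of these 64 but chr16_994508 were at loci with 0 counts after withaferin A, so they measure no rise. Library totals in place of TMM scaling gave 6 higher and 11 lower calls over all loci. Over the 76 the median fitted log2 fold change was −8.27, against −8.94 over all 303, medians that include loci with 0 counts after withaferin A and so measure no fold. The remaining unnamed loci were below the filter.

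chr19_1157613 had 0 counts in all 3 withaferin A libraries, against 9746, 8460 and 6347 in untreated AB-01, AB-02 and AB-03. At its untreated share of 0.348%, 4.14 counts would be met in 1188. That share was 1.38 times a floor of 3 counts over the group (0.253%, or 2525 CPM). The two-sided exact limit is wider and allows a share of up to 0.310%, or a ratio of up to 0.890 to the untreated share. Both pool the 3 libraries and cover counting error only. edgeR gave an adjusted p of 0.0155, with 0 counts in 3 of 3 withaferin A libraries. The call was lost with library totals in place of TMM scaling (adjusted p = 0.0825), with a replicate block (adjusted p = 0.0635) and without withaferin A replicate 3 (adjusted p = 0.0667). Over all alternatives the adjusted p ran between 1.65e-08 and 0.0825. The lowest came from limma on the authors' score, which called 631 of 660 loci, 629 of them lower, and so sets this locus little apart. It was the only unnamed locus above that floor in untreated cells, where 51 named loci were. Every other unnamed locus averaged 1219 CPM or less in untreated cells, and there 0 counts cannot show a fall at a single locus. Together, the 68 unnamed loci more abundant than chr16_994508 in untreated cells, chr19_1157613 among them, had 0 of 1188 withaferin A counts. At their untreated share of 1.34%, 15.9 counts would be met, and the exact upper limit was 0.310% (counting error only). That cut was set after the counts were seen, 13 of the 68 share counts with another, and no test was made. The 20 most abundant, chosen by untreated CPM alone, also had 0.

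The share of counts at all unnamed loci was 2.19% ± 1.51 after withaferin A and 1.45% ± 0.0717 in untreated cells (SD, n = 3 each), 0.736 points apart (two-sided exact permutation p = 0.4, where 3 against 3 cannot go below 0.1). The difference was 0.213 points without withaferin A replicate 3, 0.396 without replicate 1 and 1.60 without replicate 2. chr16_994508 gave 84% of the 25 unnamed counts after withaferin A and 0.113% of those in untreated cells. Without that locus the shares were 0.356% ± 0.313 after withaferin A and 1.45% ± 0.0718 in untreated cells (SD, n = 3 each). It was left out because of its withaferin A counts, so the turn in direction follows from the choice and carries no test.

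**Figure D5:**
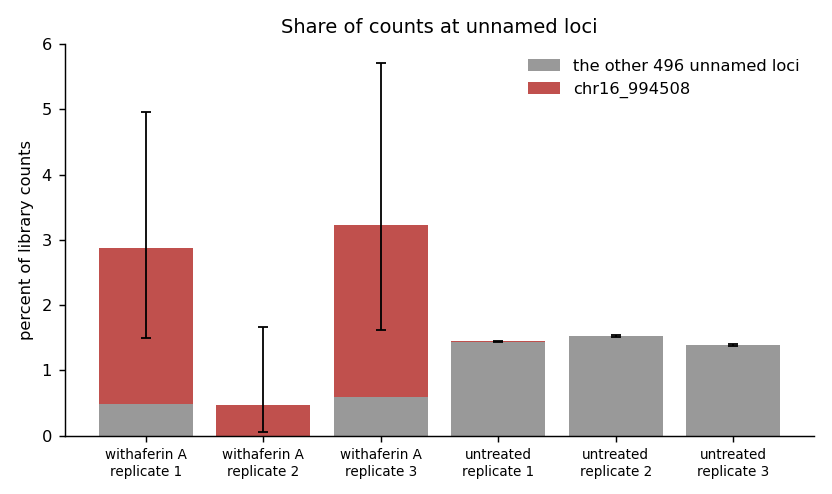
Bars give the percent of each library's counts at unnamed loci, split into chr16_994508 (red) and the other 496 (grey), for withaferin A libraries at the left and untreated libraries at the right. Lines are exact 95% Clopper-Pearson limits of the sum, and red fills most of each withaferin A bar but is too thin to see in untreated bars.

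The number of unnamed loci in use was compared at equal depth. With every library brought to 340 counts by the expected value of a draw without replacement, 2.63, 0.957 and 3 unnamed loci would have a count in withaferin A replicates 1, 2 and 3, against 4.06, 4.28 and 4.01 in untreated AB-01, AB-02 and AB-03. Again the ranges did not overlap, and their means of 2.19 ± 1.09 and 4.12 ± 0.142 (SD, n = 3 each) differed by −1.92 loci (exact two-sided permutation p = 0.1, the smallest this design allows). With loci of equal counts counted once, the means were 1.59 ± 0.556 and 3.85 ± 0.174, a difference of −2.26 loci (same permutation test, p = 0.1). Named loci were fewer as well, with 20.7, 23.3 and 30 in withaferin A libraries, against 63.3, 60.8 and 64.5 in untreated libraries. At that depth unnamed loci made up 11.2%, 3.94% and 9.09% of the loci with a count in withaferin A libraries, against 5.86% to 6.58% in untreated libraries, and on this measure the groups overlapped. These shares count loci with equal counts separately.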

How the data were processed

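Small RNA counts per locus were taken from 1 deposited table with 3 withaferin A and 3 untreated libraries. Trim Galore, cutadapt, edgeR and build GRCh38.p7 are named in the submitters' processing notes. The aligner, the locus finder, the counting rule and any use of molecular identifiers are not given in the sources used here. A second deposited table holds the authors' normalized score, each count times 1 factor per library and rounded to a whole number.

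Loci were tested over the whole table with edgeR 4.0.16 under R 4.3.3. Low counts were filtered by filterByExpr (minimum count 10), libraries were scaled by TMM, and quasi-likelihood p-values of 303 loci were adjusted after Benjamini and Hochberg. An SE is the absolute log2 fold change over the square root of F. DESeq2 1.42.0 and limma 3.58.1 (on the score, log2(score + 1), and limma-voom) served as alternatives. CPM used library totals. Tested on simulated data at these depths, the edgeR fit made no call when no locus was changed, but missed most changed loci and also called unchanged ones, all of them lower, when many were changed, so its calls are read beside the counts and the floor. Exact tests and limits used scipy 1.17.1.

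The unnamed loci named are those with a count after withaferin A, those called, the 20 most abundant in untreated cells, the 5 lowest and 5 highest in CV at a mean of at least 50 counts, and those that reach 50 counts in AB-01, AB-02 and AB-03 and have an equal partner. Other unnamed loci in the text were singled out after their values were seen. Members and rules were chosen with earlier results of these data known.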

Additional observations from a re-analysis of the deposited data

Results flagged for a closer look

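Loci below the filter on low counts stood outside the main test, and 2 unnamed ones among them had counts after withaferin A above their untreated level. chr16_1011619 had 2 counts summed over the withaferin A libraries, as had KI270853.1_1297129, against 22 counts each over the untreated libraries, which hold 7042595 counts. Both had the same counts in every library, so they are not separate measurements. At this depth any count puts such a locus above its untreated level, so these counts do not show a rise.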

How the results depend on the processing

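The call of chr16_994508 as higher held in every alternative run, with a log2 fold change of 7.66 to 10.06. That of chr19_1157613 as lower was lost with library totals, without withaferin A replicate 3 and with the replicate block (adjusted p = 0.0635), and kept in the other alternatives. The count of unnamed loci called (2, against 53 of 303 loci in all) was 4 with RLE scaling (66 of 303 in all). It was 1 with library totals only (17 of 303 in all) and 1 with a replicate block (25 of 303 in all). With no filter on low counts it was 4 (51 of 946 in all), where chr16_1011619 and KI270853.1_1297129 were called higher. DESeq2 called 6 (77 of 303 in all) and gave no adjusted p at 65 of the 76 unnamed loci. In limma-voom it was 65 (64 higher), with 234 of 303 in all. In limma on the authors' score it was 267 (266 lower), with 631 of 660 in all. There 1 count after withaferin A is worth at least 698.0 units. Of the 64 higher calls in limma-voom, all but chr16_994508 were at loci with 0 counts after withaferin A, so they measure no rise. Leaving out 1 library in turn gave 1 to 5 unnamed calls. The lowest was without withaferin A replicate 3 (24 of 303 in all) and the highest without untreated replicate 1 (68 of 303 in all). Deviations of same-numbered libraries correlated at r = 0.05, −0.00 and 0.08, and those of other pairs at −0.10 to 0.07. Withaferin A libraries of 340 to 430 counts are too shallow for a pairing to show. Whether the replicate numbers pair the libraries is therefore not known. With the replicate block only chr16_994508 was called. The share difference (0.736 points) was 0.213 to 1.60 without 1 library and turned to −1.10 without chr16_994508, a locus chosen after seeing its counts, so this turn follows from the choice. The difference in detected loci at equal depth was −2.33 to −1.31 without 1 library and −0.759 with libraries brought to a smaller depth. It was −2.26 with loci of equal counts counted once. The median CV of unnamed loci was 11.4% to 27.8% without 1 untreated library, lowest without untreated replicate 2. Fold changes of other unnamed loci were not compared across alternatives, since 0 counts at this depth give no fold. In a withaferin A library of 340 to 430 counts, the floor of 3 counts is a share of 0.698% to 0.882%. The two-sided exact limits are wider, and 0 counts at a locus there allow a share of up to 0.854% to 1.08%.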
